A study of Mus musculus with 16 samples.

Results

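To ask how raised MyoD1 levels alter open chromatin before differentiation begins, the 8 ATAC-seq libraries of proliferating C2C12 iMyoD1 myoblasts, out of 16 in the series, were compared: 4 treated with doxycycline (+dox) and 4 treated with vehicle (no dox). C2C12 is a mouse myoblast line. C2C12 iMyoD1 carries its own Myod1 gene together with a Halo-tagged MyoD1 transgene under a doxycycline-inducible promoter, integrated by PiggyBac transposition. Drug-resistant cells were kept as a pool and not as 1 clone. All 8 cultures therefore held the transgene, were seeded at 75000 cells per well, stayed in serum-rich growth medium (GM) and received doxycycline or vehicle for 24 h. No doxycycline-treated library without the transgene was used here, so an effect of the drug and an effect of MyoD1 cannot be told apart. Peaks are a bulk readout, in which a site open in more cells and a site more open in each cell cannot be told apart.

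MyoD1 is a basic helix-loop-helix transcription factor that commits cells to skeletal muscle. It pairs with E-proteins such as Tcf3 and binds the E-box, a 6-base site of the form CANNTG, with CAGCTG as its preferred version, while Id proteins sequester E-proteins and hold myoblasts in proliferation. AP-1 (Fos and Jun dimers), TEAD factors (which bind the muscle M-CAT element) and MEF2 factors occupy many of the same muscle enhancers. MyoD1 recruits histone acetyltransferases and chromatin remodellers, and can engage sites in closed chromatin.

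The deposited lists gave, for each peak, its position, its summit and the strength of the summit as a −log10 p. Lists held from 36531 to 58587 peaks with dox, and without dox from the shortest list, that of library 1, up to 49300. Background coverage solved from fold enrichment and p was 0.377 to 0.866 fragments per base with dox and 0.339 to 0.992 without. No dox libraries 1 and 3 had the weakest enrichment, with a median fold over background of 6.05 and 8.83 in the peaks compared, against 12.6 to 17.1 in the other 6 libraries. Since list lengths differed, all lists were shortened to the strongest peaks by −log10 p, as many as the shortest list held (shortened lists below). Otherwise they were compared by rank within a list. Several values for E-boxes and for presence are also given without no dox libraries 1 and 3. The distal E-box share, the share with at least 2 E-boxes, the density at the summit and the distal E-box rank score are not. Of 7 myoblast markers, Myod1, Cdh15 and Ncam1 had a peak within 10 kb of the gene in all 8 shortened lists, while Myf5 and Des had none in any. Col1a1 and Cd68, on the fibroblast and immune marker lists, also had a peak in all 8, and Ptprc, Cdh5, Tek, Epcam, Krt18 and Snap25 had none.

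Sequences are shown for 6 regions that led the comparison, each reaching 100 bp to either side of the summit, from the plus strand of GRCm38 (mm10), with capitals marking, on either strand, the MyoD1 E-box CAGCTG, the AP-1 word TGANTCA, the TEAD word GGAATG and the MEF2 word CTATTTNTA. The first 4 come from regions that ranked higher with dox or were in the shortened +dox lists only. The last 2 come from regions that ranked lower with dox or were in the shortened no dox lists only.

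Cd44, chr2:102937008-102937208: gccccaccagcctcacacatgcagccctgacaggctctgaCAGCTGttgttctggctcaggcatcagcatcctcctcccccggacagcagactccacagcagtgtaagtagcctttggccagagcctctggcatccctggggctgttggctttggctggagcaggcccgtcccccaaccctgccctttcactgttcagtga

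Agap1, chr1:89538681-89538881: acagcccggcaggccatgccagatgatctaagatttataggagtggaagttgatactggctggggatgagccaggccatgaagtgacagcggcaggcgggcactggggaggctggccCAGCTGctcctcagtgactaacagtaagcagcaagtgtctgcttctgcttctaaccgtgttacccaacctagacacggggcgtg

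Myom2, chr8:15072926-15073126: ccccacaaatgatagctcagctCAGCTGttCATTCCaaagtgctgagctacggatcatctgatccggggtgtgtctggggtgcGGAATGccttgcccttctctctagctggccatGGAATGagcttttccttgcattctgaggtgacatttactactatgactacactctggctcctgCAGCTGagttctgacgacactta

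Mmp15, chr8:95386104-95386304: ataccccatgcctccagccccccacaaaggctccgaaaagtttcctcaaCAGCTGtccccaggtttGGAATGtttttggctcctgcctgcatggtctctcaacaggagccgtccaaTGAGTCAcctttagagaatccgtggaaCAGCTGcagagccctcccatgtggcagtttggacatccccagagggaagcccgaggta

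Ido2, chr8:24573290-24573490: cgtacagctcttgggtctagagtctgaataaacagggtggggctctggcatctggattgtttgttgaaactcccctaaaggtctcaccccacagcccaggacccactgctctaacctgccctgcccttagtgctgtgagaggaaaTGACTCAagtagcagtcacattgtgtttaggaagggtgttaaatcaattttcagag

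Dkk3, chr7:112138344-112138544: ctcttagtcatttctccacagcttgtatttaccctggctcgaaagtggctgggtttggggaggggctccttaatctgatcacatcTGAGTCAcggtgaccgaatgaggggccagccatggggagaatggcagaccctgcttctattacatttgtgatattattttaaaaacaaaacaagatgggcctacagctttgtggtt

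The Cd44 and Agap1 windows hold 1 MyoD1 E-box each. The Myom2 window holds 2 E-boxes with 150 bases between them and 3 TEAD words, and the Mmp15 window holds 2 E-boxes with 88 bases between them, 1 TEAD word and 1 AP-1 word. The Ido2 and Dkk3 windows hold 1 AP-1 word each and no E-box, while the windows of lower regions near Col1a2 and Cdh18, not printed, hold none of the 4 words. Over all 23437 regions of the shortened lists, 17.2% held the MyoD1 E-box, 16.7% the TEAD word, 33.7% the AP-1 word and 0.802% the MEF2 word within 100 bp of the summit. These matches are descriptions of the DNA and do not show which factor was bound.

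Peaks with dox held more MyoD1 E-boxes near the summit. CAGCTG lay within 100 bp of the summit of 18.3%, 17.0%, 16.5% and 17.4% of the peaks in the shortened lists of +dox libraries 1 to 4 and 16.2%, 15.5%, 15.4% and 15.8% in those of no dox libraries 1 to 4. Every +dox library lay above every no dox library, and the difference of 1.59 percentage points had a two-sided exact permutation p of 0.0286, below which groups of 4 cannot go (adjusted p = 0.657 over 23 motifs, a correction no single motif can pass at this size). Peaks with at least 2 such E-boxes made up 2.37%, 2.03%, 2.07% and 2.20% of the +dox lists and 1.80%, 1.72%, 1.70% and 1.80% of the no dox lists. These groups did not overlap either (exact permutation p = 0.0286). The E-box share was higher with dox within each of the 4 replicate numbers, by 1.16 to 2.1 points. When the lists were divided by rank into 5 bins of 2942 peaks, the difference was 1.28 to 2.01 points and positive in 4 of 4 numbers in every bin, but the groups overlapped in 4 of the 5 bins, among them both bins of the strongest peaks (exact permutation p = 0.314 and 0.114). Without no dox 1 and 3 the difference over the shortened lists was 1.67 points (exact permutation p = 0.0667, the smallest that 4 against 2 libraries can give).

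Away from promoters, with the summit more than 1 kb from every annotated start site, the E-box share was 22.6%, 20.96%, 21.99% and 24.2% with dox and 19.7%, 19.5%, 19.8% and 21.0% without. The highest no dox library passed the lowest +dox library, and the difference of 2.44 points had an exact permutation p of 0.0571. At promoters the difference was 0.628 points (exact permutation p = 0.143). The TEAD word was found at 23.9%, 24.1%, 25.6% and 22.4% of distal +dox peaks and 20.3%, 22.1%, 23.7% and 20.7% of distal no dox peaks, a difference of 2.32 points with an exact permutation p of 0.0571. It was higher with dox in 4 of 4 replicate numbers, although the groups overlapped. The MEF2 word was rare but separated the groups at distal peaks, from 1.06% to 1.21% with dox and from 0.922% to 1.01% without (exact permutation p = 0.0286, adjusted p = 0.438). The AP-1 word, by contrast, was at 49.3% to 54.4% of distal +dox peaks and 46.5% to 55.1% of distal no dox peaks and showed no common direction across the replicate numbers. None of the other 9 E-box types tested had an exact permutation p under 0.286 over the whole shortened lists, and at distal peaks the lowest was 0.0857, for CAATTG. They included CAGGTG, the other E-box that MyoD1 is known to bind, found with an exact permutation p of 0.886.

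**Figure D1:**
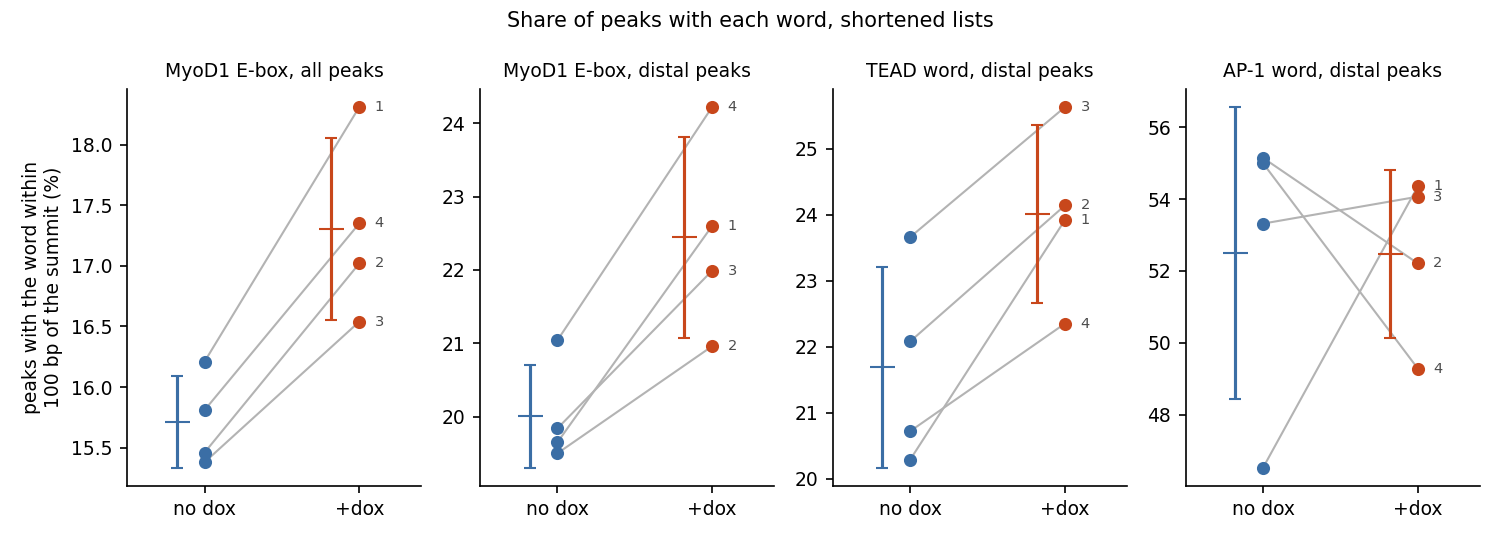
Percent of the peaks in the shortened list of each library with the MyoD1 E-box (all peaks, then distal peaks), the TEAD word or the AP-1 word (distal peaks) within 100 bp of the summit. Points are libraries, grey lines join no dox and +dox libraries of the same replicate number (numbered at right), bars beside the points show the group mean and SD (n = 4), and axes do not start at 0. E-box and TEAD lines run upward in all 4 numbers, whereas AP-1 lines run both ways.

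The difference in E-boxes lay at the summit and was not seen in the flanks. Within 50 bp of the summit the density was 1.16, 0.989, 1.01 and 1.08 E-boxes per kb with dox and 0.942, 0.907, 0.913 and 0.948 without (exact permutation p = 0.0286). From 200 to 500 bp away it was 0.555 to 0.573 per kb with dox and 0.556 to 0.598 without, a difference of −0.00705 (exact permutation p = 0.629). The ratio of centre to flank was therefore 2.07, 1.74, 1.83 and 1.88 with dox and 1.57, 1.60, 1.61 and 1.71 without, with no overlap (exact permutation p = 0.0286).

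**Figure D2:**
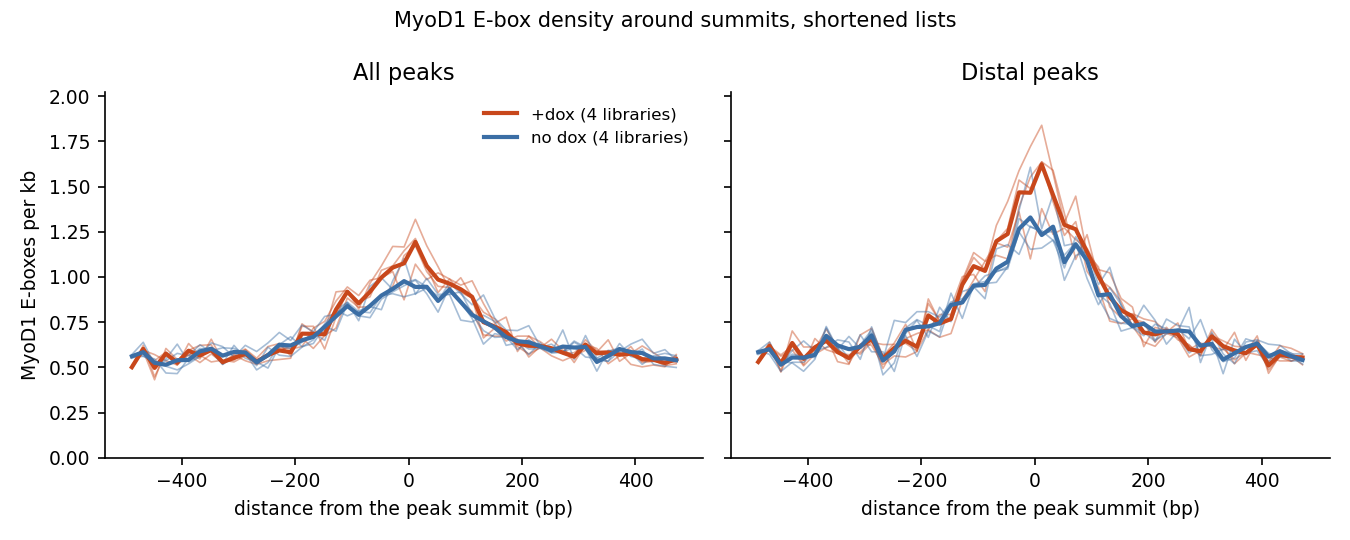
Density of the MyoD1 E-box (E-boxes per kb, vertical axis) by distance from the summit in bp (horizontal axis), for all and for distal peaks of each shortened list. Thin lines are libraries and thick lines are group means of 4. The +dox mean lies above the no dox mean around the centre and meets it in the flanks, while single libraries cross: 8 bp before the summit, +dox library 2 had 0.874 E-boxes per kb over all peaks, below every no dox library.

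The bases flanking the E-box were also compared, over its 10 forms with both strands joined. ACAGCTGC was in 3.29%, 2.90%, 2.81% and 2.94% of +dox peaks and 2.52%, 2.54%, 2.56% and 2.43% of no dox peaks, a ratio of means of 1.19. ACAGCTGT had a ratio of 1.23, CCAGCTGA of 1.12 and GCAGCTGA of 1.08, and these 4 forms did not overlap between the groups (exact permutation p = 0.0286 and adjusted p = 0.0715 over the 10 forms, each). The ratio was 1.05 for ACAGCTGA (exact permutation p = 0.4) and 0.963 for TCAGCTGA (exact permutation p = 0.571). The difference between forms was not tested.

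To place the E-box among all words of its length, the share of peaks with each of 2080 hexamers was fitted with limma. CAGCTG had the lowest p of all, with a logit difference of 0.12 ± 0.03 (SE). In a fit of distal peaks alone it had place 5, behind AGGTAC at place 3 and GATCGA at place 4, which were less frequent with dox. AGCTGG, which overlaps CAGCTG, had place 37 in that distal fit and place 4 in the fit of the whole shortened lists. No hexamer passed Benjamini-Hochberg adjustment (CAGCTG adjusted p = 1.00), and 2 higher and 2 lower hexamers had an unadjusted p under 0.05 (0.0962% in each direction). The shares did not overlap between groups for 5 hexamers that were higher (0.24% of those tested) and 4 that were lower (0.192%). With the replicate number as a block, CAGCTG had place 1 again and CATTCC, the TEAD word read on the other strand, moved from place 7 to place 2. It was followed by AGGAAT at place 3, ATTCCA at place 5 and ACATTC at place 6, all of which overlap it. In this blocked fit 0 hexamers passed, with 11 higher and 7 lower at an unadjusted p under 0.05. The 6 hexamers with the lowest p among those less frequent with dox, each with its mean share of +dox and no dox peaks, were GATCGA (1.02% and 1.12%), AGGTAC (2.82% and 3.05%), TCGACA (1.32% and 1.41%), AGACGA (2.77% and 2.94%), ATCGTC (1.56% and 1.67%) and CACCTA (4.56% and 4.80%). For the first 3, every no dox library lay above every +dox library. Completing the 6 named on the other side were AACGTC (2.94% and 2.79%), AGCTGC (22.2% and 21.2%) and ATCGGA (2.66% and 2.53%).

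Rank within a list was then compared on a fixed set of regions. Regions with a peak in all 8 full lists numbered 12539. Each was given a normal score of its summit rank among these regions in each library. A score of 1 stands 1 SD above the middle of these regions. Distal regions with the MyoD1 E-box (1364 of 6724) scored above the other distal regions by 0.21, 0.12, 0.16 and 0.23 in the +dox libraries and by 0.04, 0.01, 0.01 and 0.10 in the no dox libraries. The groups did not overlap, and the difference of 0.14 had an exact permutation p of 0.0286 (adjusted p = 0.328). Over promoter and distal regions together the difference was 0.10 and the groups overlapped (exact permutation p = 0.171). Without no dox 1 and 3 this difference was 0.13 (exact permutation p = 0.133). The TEAD word shifted distal ranks by 0.11 with dox (exact permutation p = 0.0571, 4 of 4 replicate numbers higher) and the MEF2 word by 0.11 (64 regions, exact permutation p = 0.0286), each with adjusted p = 0.328. In replicate numbers 1 to 4 the MEF2 shift was 0.27, 0.05, 0.08 and 0.04. The MEIS word CTGTCA shifted distal ranks by 0.05 (exact permutation p = 0.0571, 4 of 4 higher). The largest shift of any word was 0.26, for CRE (31 regions, exact permutation p = 0.114, 4 of 4 higher). The AP-1 word shifted them by −0.06 (exact permutation p = 0.171, lower in 4 of 4).

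The rank difference was larger where a distal region held more E-boxes. With 1 E-box (1195 regions), the score relative to the 5360 distal regions without any was 0.18, 0.09, 0.14 and 0.20 with dox and 0.05, 0.01, 0.01 and 0.09 without, a difference of 0.12. With 2 E-boxes (150 regions) it was 0.39, 0.27, 0.30 and 0.45 with dox and −0.03, 0.04, 0.03 and 0.18 without, a difference of 0.30. With 3 or more (19 regions) it was 0.61, 0.46, 0.49 and 0.52 with dox and 0.35, 0.12, 0.07 and 0.17 without, a difference of 0.34. In each class all +dox libraries lay above all no dox libraries (exact permutation p = 0.0286, adjusted p = 0.0572 over the 10 classes of E-box number and word combination). Without no dox 1 and 3 the differences were 0.11, 0.24 and 0.37, with exact permutation p of 0.133, 0.0667 and 0.0667. The difference between the classes was not tested.

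Words were then combined, with the 1804 distal regions that held none of the E-box, TEAD and AP-1 words as reference. Regions with both an E-box and a TEAD word (176) scored 0.43, 0.31, 0.39 and 0.28 with dox and 0.11, 0.10, 0.09 and 0.07 without, a difference of 0.26 (exact permutation p = 0.0286). An E-box alone (512 regions) gave 0.13 (exact permutation p = 0.0286) and a TEAD word alone (634 regions) gave 0.12 (exact permutation p = 0.114). An E-box with an AP-1 word (535 regions) gave 0.10 (exact permutation p = 0.114), TEAD with AP-1 (581 regions) gave 0.03 (exact permutation p = 0.571), and all 3 words (141 regions) gave 0.17 (exact permutation p = 0.0857). For the AP-1 word alone (2341 regions) the difference was −0.04 (exact permutation p = 0.429) and ranged from −0.07 to 0.0003 as single libraries were left out. Of the 7 combinations, the E-box with TEAD had the largest difference, and it was 0.27 without no dox 1 and 3 (exact permutation p = 0.0667).

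**Figure D3:**
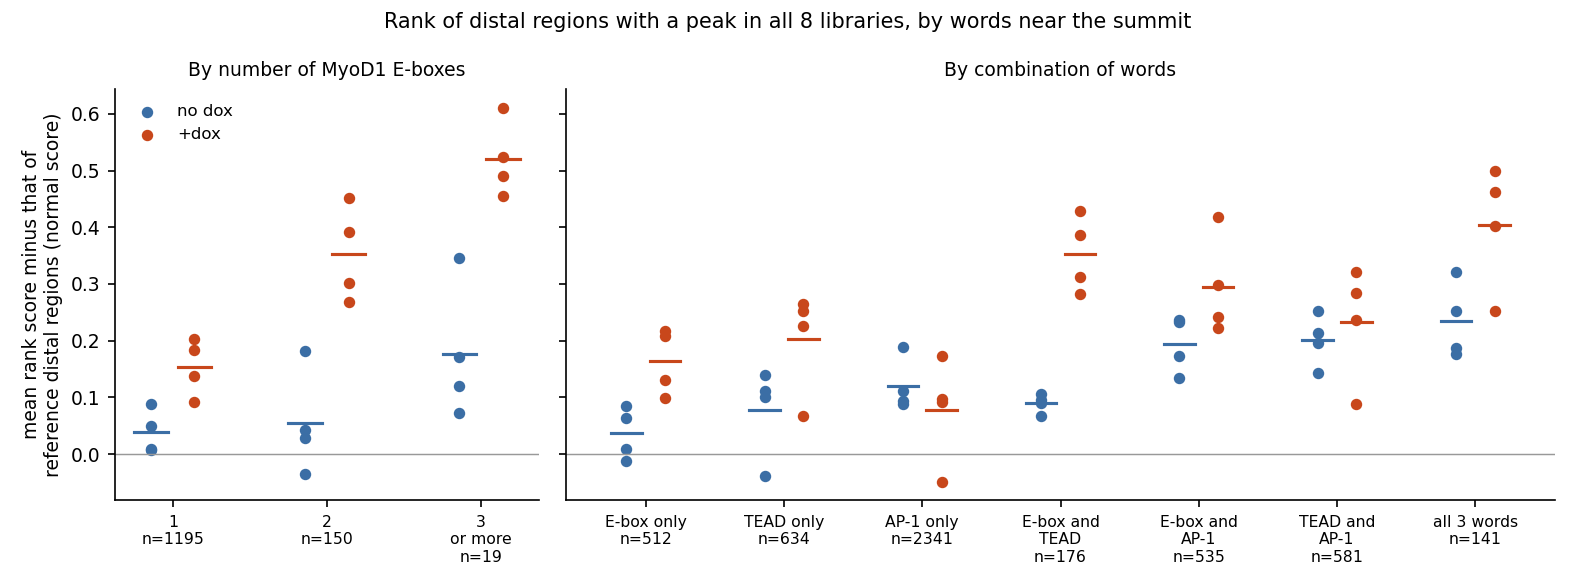
Mean rank score of distal regions with a given number of MyoD1 E-boxes (left) or combination of words (right) minus that of reference regions without them, per library (vertical axis, normal score units). Points are libraries, short lines are means of 4, and n is the number of regions. The +dox points lie above all no dox points for each E-box number, for the E-box alone and for the E-box with TEAD, and are mixed with them for AP-1.

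No single region passed adjustment by rank. In the limma fit over the 12539 regions, 0 had an adjusted p under 0.05 in either direction and the lowest adjusted p was 0.915. At an unadjusted p under 0.05, 285 regions ranked higher with dox (2.27%) and 335 lower (2.67%). With the replicate number as a block 0 passed (lowest adjusted p = 0.113), with 613 higher and 674 lower at an unadjusted p under 0.05. The regions below are therefore those with the lowest p and are given as measured values.

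The 8 leading regions that ranked higher lay at or near Myom2, Mmp15, Pdxk, Wdr59, Tcf15, Ogfod1, Ctps2 and Ssbp3. The first was an exonic region of Myom2, which encodes an M-band protein of the sarcomere (chr8:15072520-15073303). Percentiles, here and below, are places among the 12539 fitted regions in each library, not in its full list, with 100 the strongest. The Myom2 region stood at percentiles 93.0, 82.7, 95.6 and 61.5 with dox and at 7.35, 34.6, 35.7 and 24.97 without. That is a shift of 1.83 ± 0.36 normal scores (SE, adjusted p = 0.915 by limma), with no overlap between the groups. A region 16.3 kb from the start of Mmp15, a membrane-type matrix metalloproteinase (chr8:95385684-95386473), stood at percentiles 42.0, 56.2, 17.1 and 20.0 with dox and 5.87, 2.22, 4.09 and 1.92 without (1.39 ± 0.32). A region 37.1 kb from Tcf15, a helix-loop-helix factor of the somite (chr2:152180074-152180805), stood at 90.3, 74.2, 88.8 and 63.7 with dox and 25.3, 59.8, 29.8 and 26.1 without (1.28 ± 0.33). Each of these 3 regions held 2 MyoD1 E-boxes and a TEAD word near its summit. The remaining 5, none with an E-box, were intronic in Pdxk (pyridoxal kinase), Ogfod1 (a ribosomal prolyl hydroxylase), Ctps2 (CTP synthase) and Ssbp3 (a partner of LIM-domain cofactors), or exonic in Wdr59 (a regulator of mTORC1), with differences of 1.18 to 1.44.

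The 8 leading regions that ranked lower were nearest to Ido2, Cdh18, Col1a2, Slc35d1, Ermard, Cnbd1, Rptor and Stum. None held a MyoD1 E-box near its summit, and 4 held an AP-1 word. Among the leading higher regions, those at or near Mmp15, Wdr59, Tcf15 and Ogfod1 held an AP-1 word too. An intronic region of Ido2, an enzyme of tryptophan breakdown (chr8:24573130-24573883), stood at percentiles 10.8, 24.2, 6.76 and 12.1 with dox and 57.7, 61.7, 74.1 and 47.2 without (−1.42 ± 0.30, adjusted p = 0.915 by limma). An intronic region of Cdh18, a cadherin (chr15:22722648-22723202), stood at 3.40, 3.15, 2.68 and 5.91 with dox and 43.8, 23.7, 43.5 and 18.8 without (−1.31 ± 0.29). A region 72.4 kb from Col1a2, a chain of type I collagen (chr6:4432159-4432546), stood at 13.6, 11.6, 2.49 and 5.06 with dox and 44.9, 41.3, 56.4 and 29.2 without (−1.29 ± 0.31). The 16 leading regions were picked by their low p, which favours groups that do not overlap. Only at Rptor, which encodes a subunit of mTORC1, did the groups overlap.

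**Figure D4:**
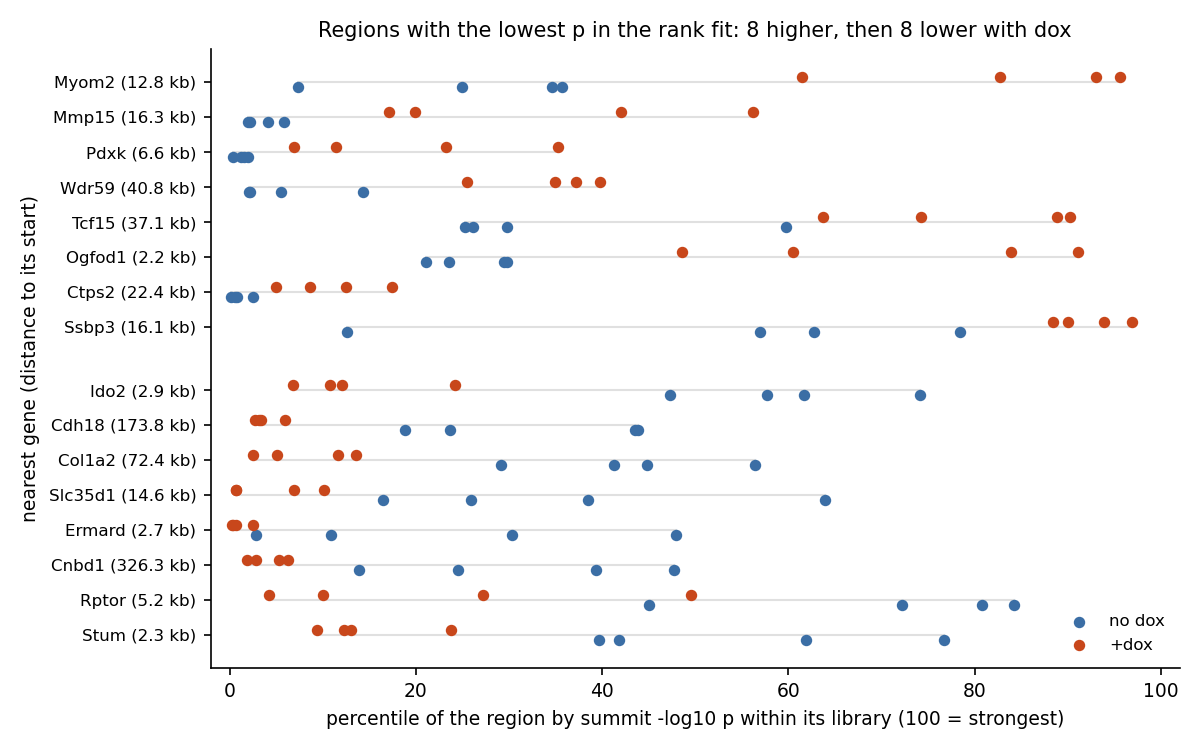
Percentile of each of the 16 regions with the lowest rank-fit p within each library (horizontal axis, 100 is the strongest of 12539 regions), labelled by nearest gene and distance to its start in kb (vertical axis). Points are libraries, 4 per group. The regions were picked for this separation, and only at Rptor do the groups overlap.

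Peak width was the third measure. Over the shortened lists the median width was 477, 606, 492 and 480 bp with dox and 345, 548, 364 and 604 bp without, and the difference of 48.5 bp lay within the spread (exact permutation p = 0.457). The narrowest medians without dox belonged to the weakly enriched libraries 1 and 3, and without them the difference was −62.2 bp (exact permutation p = 0.4). In the limma fit of log2 width over 12539 regions 0 passed in either direction (lowest adjusted p = 0.0593), with 239 wider (1.91%) and 247 narrower (1.97%) at an unadjusted p under 0.05. The leading narrower region was intronic in Grid1, a delta-type glutamate receptor gene (chr14:35519420-35520548), at 459, 336, 393 and 259 bp with dox and 770, 1088, 637 and 995 bp without. That is a log2 difference of −1.49 ± 0.19 (adjusted p = 0.0593 by limma). With the replicate number as a block it was the only region to pass (adjusted p = 0.0434 by limma). Regions of Kif16b (−0.82) and near Spaca6 (−0.80) followed. The leading wider regions were intronic in Nek6, a mitotic kinase (0.84 ± 0.15), intronic in Ctnna1, the alpha-catenin of adherens junctions (0.94 ± 0.19), and at the start of the peroxidase gene Prdx2 (0.81 ± 0.17).

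Regions present in all 4 lists of one group and none of the other (all-or-none regions) were few, at 38 higher with dox (0.162%) and 29 lower (0.124%) of 23437. Of the 38 higher regions 16 (42.1%) held a MyoD1 E-box and 14 (36.8%) a TEAD word, against 5 of 29 (17.2%) and 4 of 29 (13.8%) of the lower regions. The AP-1 word was at 12 of 38 higher regions (31.6%) and 12 of 29 lower regions (41.4%), against 33.7% of all regions. At least 2 E-boxes were found at 4 higher and 0 lower regions. The higher regions were mostly away from promoters, with 5 of 38 (13.2%) within 1 kb of a start site against 9 of 29 (31.0%) of the lower ones and 41.6% of all regions. They comprised 19 intronic, 15 intergenic and 4 exonic summits. Each higher region had a weaker peak in 1 or more full no dox lists (23 of 38 in 3 of them), and each lower region in 3 or 4 full +dox lists. No higher region could have one in no dox library 1, the shortest list.

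Among the 8 strongest higher regions, that 35.4 kb from Cd44, the hyaluronan receptor (chr2:102936933-102937294), ranked 1913, 4620, 11816 and 11560 in the full +dox lists. In the no dox lists it was absent from library 1 and ranked 17176, 22226 and 15171 in libraries 2 to 4. An intronic region of Agap1, an Arf GTPase-activating protein (chr1:89538381-89539062), ranked 9666, 6603, 8638 and 5049 with dox, and without dox it ranked 21156 in library 2 and 19017 in library 4 and was absent from libraries 1 and 3. An intronic region of Hsf1, the heat shock factor, held an E-box and a TEAD word and ranked 5402, 9579, 7419 and 9515 with dox. The other 5, near Adcy7, Prr5l, Cpq, Rtl6 and Syt15, held no MyoD1 E-box. Further higher regions with an E-box lay in or near Nav1, Ptpre, Eya4, Slc11a2, Nrap, Zfp280d, 2010111I01Rik, Dnm3 and Fam120a, and those with 2 E-boxes included regions of Ncoa1, Akip1 and Cd82. Eya4 is a transcriptional cofactor in muscle progenitors, and Nrap encodes an actin-anchoring protein of nascent myofibrils.

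The 8 strongest lower regions lay near Dkk3, Col1a2, Tmem63a, Clcn1, Ppic, Lhfpl2, Tmem266 and Ccl7. The intronic Dkk3 region, in a gene for a secreted Dickkopf-family protein (chr7:112138234-112138883), ranked 5036, 8274, 8381 and 12138 without dox and 22112, 15183, 26767 and 16446 with dox. An exonic region of Clcn1, the skeletal muscle chloride channel, held a MyoD1 E-box and ranked 9267, 12371, 4791 and 8815 without dox and 14877, 17754, 19752 and 16700 with dox. E-boxes were also found at lower regions near Usp12, Prmt3 and Cacna2d3.

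A wider class, found in at least 3 more +dox than no dox lists, held 360 regions (1.54%), and its mirror image 285 (1.22%). The MyoD1 E-box was at 36.4% of the former and 14.4% of the latter, and the TEAD word at 31.1% and 12.3%, against 17.2% and 16.7% of all regions. AP-1 words were at 36.9% and 43.2%, against 33.7% of all regions. Among distal regions the share in the higher class was 1.69% with no E-box (183 of 10822), 3.58% with 1 (89 of 2486), 5.62% with 2 (19 of 338) and 13.0% with 3 or more (6 of 46). The share in the lower class was 1.56%, 1.05%, 0.592% and 0% in the same order (0 of 46 for the last, which allows a share of up to 6.52%). Without no dox 1 and 3, 114 regions were in 4 of 4 +dox and 0 of 2 no dox lists (0.54%), with the E-box at 41.2% and TEAD at 38.6%. The reverse held 112 regions (0.53%), with the E-box at 14.3% and TEAD at 8.04%. The AP-1 word was then at 36.8% and 37.5%.

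Replicate numbers were then used as pairs, since libraries of the same number deviated together from their group means in rank. So did some of different number, such as +dox 2 with no dox 1 and +dox 3 with no dox 4. In each number, regions of the shortened lists found only with dox (gained, 2108 to 4333) were compared with those found only without (lost, 2165 to 4278). The MyoD1 E-box was more frequent at gained than at lost regions by 6.37, 9.79, 6.56 and 11.2 percentage points in numbers 1 to 4, from a mean of 14.1% at lost regions to 22.6% at gained ones. At distal regions the excess was 8.35, 8.84, 9.36 and 14.8 points. The TEAD word followed with 6.37, 11.5, 3.93 and 4.04 points. Both had the same sign in 4 of 4 pairs, for which the exact sign-flip p is 0.125, the smallest 4 pairs allow. MEF2 and MEIS (CTGTCA) words were also higher at gained regions in 4 of 4 pairs, by means of 0.477 and 1.36 points, and the MEF3 word TCAGGTT was lower in 4 of 4, by a mean of 0.298 points. AP-1 differed by 10.01, 4.77, −5.81 and −19.5 points, and at distal regions by 13.6, −13.7, −1.34 and −21.5 points, with no common sign in either set. The replicate numbers also differed in promoters. Regions found in all 4 lists of numbers 1 and 2 and none of numbers 3 and 4 had 8.93% promoters (112 regions), and the reverse had 74.6% (173 regions). The part of this split in the AP-1 values was not tested.

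**Figure D5:**
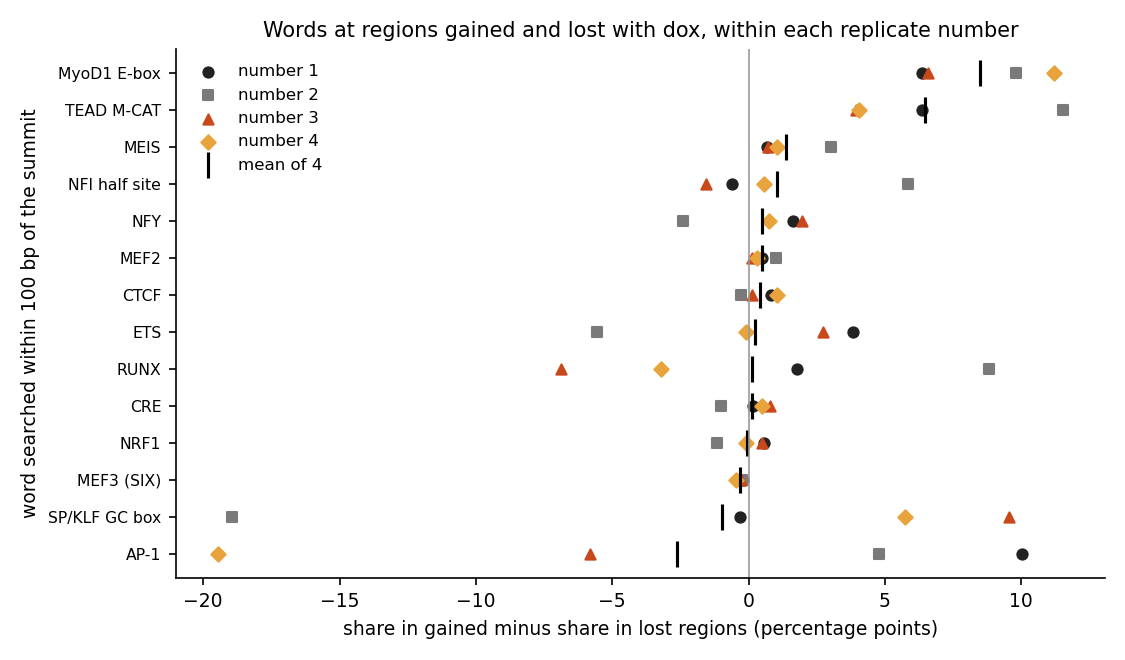
Share of regions with each word among those gained with dox minus the share among those lost, within each replicate number (horizontal axis, percentage points), for 14 words (vertical axis, sorted by the mean). Symbols are the 4 replicate numbers and vertical ticks their mean. The MyoD1 E-box and TEAD words lie right of 0 in all 4 numbers, while AP-1 and the SP/KLF GC box (GGGCGG) spread to both sides.

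Genes were next examined by function, taking peaks within 10 kb of each gene. Of the 18 myogenic regulators, 11 had a shortened-list peak in all 8 libraries, and of their 39 regions in the rank fit 1 ranked higher and 1 lower at an unadjusted p under 0.05, against 2.27% and 2.67% of all regions. The higher one was intronic in Hdac4, a deacetylase that represses MEF2, and held 2 E-boxes (chr1:92099505-92100121). It stood at percentiles 39.4, 40.9, 17.8 and 50.8 with dox and 16.8, 3.50, 4.24 and 30.5 without (0.90 ± 0.35, adjusted p = 0.96). The lower one was intronic in Nfix, which drives the fetal myogenic programme (chr8:84742154-84743023), at 96.7, 83.5, 78.0 and 80.3 with dox and 99.9, 97.1, 97.8 and 98.6 without (−1.16 ± 0.34, adjusted p = 0.915). The Nfix values did not overlap, whereas those of Hdac4 did. Runx1 (0.68) and Hdac5 (0.42) came next.

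Of the 16 E-proteins and their inhibitors, 10 had a peak in all 8 lists, and at an unadjusted p under 0.05, where 2.27% of all regions ranked higher and 2.67% lower, 1 of 20 fitted regions ranked higher and 1 lower. Neither passed adjustment. A region 1.76 kb upstream of Id2, an inhibitor of E-proteins (chr12:25098566-25099046), held an E-box and stood at percentiles 66.7, 51.6, 51.1 and 75.3 with dox and 23.3, 25.9, 41.1 and 39.3 without (0.76 ± 0.29, adjusted p = 0.96). A region 7.60 kb upstream of Mdfi, which binds and inhibits MyoD family proteins (chr17:47842037-47842714), also held an E-box and stood at 9.98, 32.7, 24.2 and 48.2 with dox and 67.2, 60.1, 45.1 and 58.2 without (−0.82 ± 0.32, adjusted p = 0.96). These 2 E-box regions thus lay on opposite sides. Another region, 2.98 kb upstream of Id3 and with 2 E-boxes (chr4:136140346-136140778), ranked 4209, 6188, 5807 and 1045 in the +dox lists, was absent from no dox library 1 and ranked 4356, 3383 and 5881 in no dox libraries 2 to 4. Bhlhe40 (−0.68) and Tcf3 (0.37) were the other genes with the lowest p.

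Contractile genes had few peaks in these lists. Of 30 sarcomere genes, 18 had no shortened-list peak in any library and 5 had one in all 8. Of 10 fitted regions 1 ranked higher at an unadjusted p under 0.05 (2.27% of all regions), intronic in Tnni1, the slow troponin I (0.81 ± 0.36, adjusted p = 0.992), at percentiles 34.6, 63.0, 23.2 and 12.6 with dox and 1.91, 12.7, 16.7 and 16.1 without. Ldb3 (0.40), Mylpf (−0.35) and Tnnc2 (0.28) followed. Myom2, whose region led the whole rank fit, was not on this list and is outside its counts. Among 10 genes of the neuromuscular synapse 6 had a peak in all 8 lists and 0 of 7 fitted regions had an unadjusted p under 0.05, with the lowest p at Agrn (0.62), Chrnd (0.41), Dok7 (0.18) and Chrnb1 (0.17). A region at the start of Rapsn, which clusters acetylcholine receptors, held an E-box and a TEAD word and was in 4 +dox and 1 no dox shortened lists (chr2:91035314-91035880).

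Fusion genes had values on both sides. Of 16 genes on this list, 15 of them found in the annotation, 9 had a peak in all 8 lists, and 1 of 23 fitted regions had an unadjusted p under 0.05 (2.27% of all regions ranked higher and 2.67% lower), ranking lower in an exon of Myof, a membrane repair and fusion protein (−0.90 ± 0.35, adjusted p = 0.96). Dock1 (0.62), Elmo1 (−0.71) and Cd9 (−0.79) followed. Mymk, the fusogen myomaker, had no shortened-list peak, and an intronic region with 2 E-boxes (chr2:27069659-27069970) appeared weakly in the full lists, at ranks 25503, 30398, 32282 and 22701 with dox and at rank 36258 in no dox library 2 alone. The list of no dox library 1 was too short to reach any of these ranks, and that of library 3 reached only 22701. A region 5.26 kb from the start of Mymx, the fusogen myomixer, was counted with the study targets and not among these 23 and also had an unadjusted p under 0.05. It lay in an intron of Slc29a1 (chr17:45596511-45597378) and stood at percentiles 63.0, 83.4, 72.1 and 55.1 with dox and 98.4, 92.8, 83.0 and 79.1 without (−0.84 ± 0.34, adjusted p = 0.97). Myog, the differentiation regulator myogenin, had a single region, 1.57 kb upstream, at ranks 49350 and 39428 of the full lists of +dox libraries 1 and 3. Of the no dox lists, which lacked it, those of libraries 1 and 3 were too short to reach either rank and none reached 49350.

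At Myod1 itself the exonic region 0.54 kb into the gene ranked 10096, 4442, 1324 and 3904 with dox and 17, 5008, 174 and 6487 without, a difference of −0.93 ± 0.53 (adjusted p = 0.997). The highest ranks were in the weakly enriched no dox libraries 1 and 3. The transgene carries Myod1 coding sequence, so reads from it and from the endogenous exon cannot be told apart. Of the other study targets with fitted regions, Mymx is given above, and Id3 (−0.20) and Mef2a (−0.14) differed by less than their SE of 0.32.

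Adhesion genes were next. The study chose Cdh15, Cdh23, Cadm4, Itga3 and Mcam for higher RNA with dox in these cells and more MyoD1 binding with dox. Binding was measured in a clonal line with a tagged Myod1 gene. The values of these 5 genes are therefore not independent of that choice. Of the targets above, the study took Mef2a, Id3, Myod1 and Mymk as previously reported and showed MyoD1 binding at them in that line. Both fitted regions of Cdh15, the muscle cadherin, were intronic, held an E-box and ranked higher with dox at an unadjusted p under 0.05. The one 3.89 kb into the gene (chr8:122851575-122852238) stood at percentiles 66.4, 74.3, 37.3 and 39.3 with dox and 29.2, 38.3, 17.4 and 28.7 without (0.71 ± 0.31, adjusted p = 0.992). The one 2.79 kb into the gene stood at 20.3, 29.8, 25.9 and 24.3 with dox and 29.2, 2.69, 16.6 and 0.965 without, a difference of 0.77. The groups overlapped at both. Cdh23, a cadherin of cell contacts, had 2 fitted intronic regions with differences of 0.38 and −0.34 (adjusted p = 0.997 for the former), and a weak intronic region 212.7 kb into the gene at ranks 39940, 36188, 37006 and 27135 of the full +dox lists and in 0 no dox lists, of which those of libraries 1 and 3 were shorter than all of these ranks. Cadm4 had a region inside Zfp428 with a difference of −0.08, while Itga3 and Mcam had no region in all 8 full lists. In the wider adhesion and junction list of 45 genes, 22 had a peak in all 8 lists, and at an unadjusted p under 0.05 (2.27% of all regions higher and 2.67% lower) 1 of 58 fitted regions ranked higher, in Itgb5 (1.03 ± 0.31, percentiles 60.9, 26.6, 42.2 and 23.4 with dox and 5.95, 12.6, 6.05 and 13.0 without), and 1 lower, in Itgav (−0.81 ± 0.36). Both encode integrin subunits, and neither region held a MyoD1 E-box. Itga7 (−0.62) and Itgb3 (−0.63) followed.

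Among 18 cell cycle genes 11 had a peak in all 8 lists, and 1 of 18 fitted regions ranked higher at an unadjusted p under 0.05 (2.27% of all regions). It lay in Ccnd3, the cyclin D3 gene, 0.4 kb from an annotated start (chr17:47595463-47596067), held an E-box and was in 4 +dox and 1 no dox shortened lists. It stood at percentiles 31.2, 32.8, 30.7 and 38.7 with dox and 2.94, 5.67, 8.40 and 19.8 without, with no overlap (0.99 ± 0.30, adjusted p = 0.915). Cdk6 (−0.60), Cdkn1b (0.49) and Cdkn1a (0.36) were the next genes. None of 19 regions of the 10 AP-1 genes, 18 of the 12 Notch genes or 17 of the 13 matrix and fibroblast genes had an unadjusted limma p under 0.05, with the lowest p at Jund (0.52), Junb (−0.49), Jun (−0.35) and Fosb (0.40), at Jag2 (0.56), Notch3 (−0.48), Notch2 (−0.45) and Rbpj (−0.29), and at Fbn1 (−0.71), Col1a2 (−0.66), Pdgfrb (0.75) and Thy1 (0.58). Of 16 markers of other cell types, 3 had a peak in all 8 lists and 1 of 9 fitted regions ranked lower at an unadjusted p under 0.05 (2.67% of all regions), in Pecam1, an endothelial gene (−0.91 ± 0.43). Sox9 (−0.53), Pparg (−0.50) and Rbfox3 (−0.49) followed. The median of the genes' median rank differences was 0.04 for myogenic regulators, −0.02 for E-proteins and inhibitors, −0.02 for fusion genes, 0.07 for sarcomere genes and 0.11 for synapse genes, beside 0.00225 over all regions. It was −0.01 for adhesion and junction genes, 0.05 for AP-1 genes, 0.23 for cell cycle genes, −0.07 for Notch genes, −0.09 for matrix genes and −0.22 for other cell types.

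Some list genes were also the nearest gene to regions in at least 3 more or 3 fewer +dox lists, and the following were chosen after their values were seen. With E-boxes and in more +dox lists, such regions lay near Eya4 (9.9 kb away, 4 against 0 lists), Pcdh18 (113.0 kb, 4 against 1), Itga7 (2.2 kb, 3 against 0) and Gadd45g (329.1 kb, 3 against 0, with 3 E-boxes). Gadd45g encodes a growth arrest protein. Regions in fewer +dox lists lay near Chrna1 (12.9 kb, 0 against 3) and Cd9 (29.1 kb, 1 against 4) and, farther away, Fn1 (99.4 kb, 0 against 3) and Dysf (173.5 kb, 1 against 4). One near Ncam1 (207.0 kb, 0 against 3) held an E-box and a TEAD word. Itga7 and Myof each had regions in both classes.

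The GM regions were finally looked up in the 6 differentiating (DM) libraries kept by the study, whose cells were seeded more densely and moved to low serum as the same 24 h of dox or vehicle began. Of the 360 regions in at least 3 more +dox lists, 61.9%, 55.3% and 49.4% were in the strongest peaks, to the same number, of DM +dox libraries 2 to 4 and 33.6% to 37.8% in those of DM no dox libraries 2 to 4. For the 131 of these with an E-box the means were 69.7% with dox and 41.0% without, and for the 229 without an E-box they were 47.5% and 32.3%. Of the 285 regions in at least 3 fewer +dox lists, 26.0%, 29.1% and 30.2% were found with dox and 52.3%, 46.3% and 40.7% without. For the 41 of these with an E-box the means were 24.4% with dox and 49.6% without. For the 244 without an E-box they were 29.1% and 45.9%. In the classes of 360 and of 285 regions the DM groups did not overlap, with 3 libraries a group. The share of all 23437 regions found in these DM lists was not taken, so no general level stands beside these values. Of the 29 all-or-none lower regions, 20.7% to 31.0% were found with dox and 31.0% to 44.8% without, so the groups met. DM no dox libraries 2 and 3 had a median fold of 10.3 and 9.85, against 14.9 to 19.4 in the other 4, and the part of this in these shares was not tested.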

How the data were processed

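Peak lists of 8 growth medium libraries were analysed, with 6 differentiation libraries only looked up. The authors processed reads with nf-core/atacseq against mm10 with a blacklist, and MACS2 called peaks per library (lowest −log10 q of 1.3, a q-value of 0.05). The deposited columns used were the −log10 p and −log10 q of each peak, its fold ratio over background and its score. No read counts per region were used. Lists were kept whole or shortened to the length of the shortest one. Peaks of different libraries overlapping by 1 bp were joined into regions. Words were searched on both strands of GRCm38 within 100 bp of the summit, and genes were taken from GENCODE. Rank normal scores, log2 widths and hexamer logits were fitted with limma 3.58.1 (R 4.3.3) with Benjamini-Hochberg adjustment. Library values were compared with two-sided exact permutation tests (scipy 1.17.1). The fits were tested on simulated data with independent noise in each library. Those data lacked the shared deviations of same-numbered libraries described below, so they do not show how the fits behave with them.

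The labels call the replicates biological, without naming separate cultures, so p-values measure only the spread between these libraries. Same-numbered libraries deviated together in rank score (correlations 0.316, 0.313, 0.224 and 0.559), and the numbers were used as pairs there. Some libraries of different number did so too, with 0.297 for +dox 2 with no dox 1 and 0.275 for +dox 3 with no dox 4. Between numbers 1 or 2 and numbers 3 or 4 every such correlation was negative. Named regions were the 8 with the lowest rank p, the 3 with the lowest width p and the 8 strongest all-or-none regions in each direction, with all-or-none regions that held an E-box, the 6 hexamers with the lowest p in each direction and up to 4 genes per list. Comparison, members and lists were chosen with earlier results of these data known. Alternatives changed list length, ranking, filters, the block and single libraries. The first differentiation replicate of each group was left out, as in the study. A few of the regions that these rules name are not reported here.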

Additional observations from a re-analysis of the deposited data

Results flagged for a closer look

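Of 100 groups of 4 libraries examined, 3 held a library whose gap to the nearest of the others exceeded Dixon's 95% critical value, a criterion that chance meets in about 1 of 20 groups. The median peak width of +dox library 2 was 606 bp, against 477 to 492 bp in the other +dox libraries. The region near Kif16b was 525 bp wide in +dox library 2 and 304 to 332 bp in the others. The region near Tcf15 stood at percentile 59.8 in no dox library 2 and at 25.3 to 29.8 in the other no dox libraries.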

How the results depend on the processing

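Of 167 alternative values, 141 kept their direction, side of the threshold and, for counts, size, 24 moved and 2 reversed. Those kept included counts of 0 that stayed 0 and p-values that stayed over 0.05. The E-box values were judged by their adjusted p, which was over 0.05 in every setting. The reversed values were the difference in median peak width, which was −16.5 bp over all deposited peaks and −62.25 bp without no dox 1 and 3, an alternative chosen after seeing the data. All-or-none regions depended on list length and on single libraries. They numbered 315 higher and 0 lower over all deposited peaks, 15 and 15 in lists shortened further, 63 and 23 when ranked by fold enrichment, and 114 and 112 without no dox 1 and 3. With single libraries left out they were 58 to 100 higher and 49 to 94 lower, above the counts over all 8 libraries whichever library was left out, since fewer lists then had to agree. No limma fit of ranks called a region under any alternative, and without no dox 1 and 3 the unadjusted limma p was under 0.05 for 800 higher and 353 lower of 27794 regions. The replicate block gave 1 narrower region, near Grid1 (adjusted p = 0.0434), where the width correlations of same-numbered libraries were 0.212, 0.249, 0.110 and 0.087, and changed no other call. In the pairs, the exact sign-flip p was 0.125 for the E-box share and for its rank score. The E-box share difference was 1.26 to 1.85 points and the rank score difference over promoter and distal regions 0.06 to 0.14 as single libraries were left out, with width at 8.42 to 94.8 bp and the log2 difference in peak number, 0.69 over all 8 libraries, at 0.38 to 0.96. Without no dox 1 and 3 the latter was 0.06 (exact permutation p = 0.867). In lists shortened further the E-box share difference was 1.45 points and the groups overlapped (exact permutation p = 0.114). Peak lists carry no depth per region, so small differences in openness at regions called in every library were not detectable here.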
